A study of Mus musculus with 64 samples.

Results

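Megakaryocyte-erythroid progenitors (MEP) sorted from the bone marrow of scat mice in anemic crisis were compared with MEP from young wild-type (WT) mice, across 14307 genes. The comparison holds 6 of the 64 RNA-seq libraries of the series, chosen by the labelled tissue, cell type, disease state and age, with no use of expression values. The crisis group is 3 mice of strain CbyJ.Cby-Rasa3(scat)/Llp with genotype scat/scat and a disease state recorded as critical, aged 23, 28 and 26 days (crisis 1, 2 and 3). The young WT group is 3 +/+ mice of that strain with no disease recorded, aged 28, 23 and 25 days (young WT 1, 2 and 3). All 6 mice are recorded as stage I and received no treatment in the labels. The scat allele is carried in the germline, so the cells of every tissue have it and a difference in MEP need not arise within MEP. Each library is 1 mouse, and the groups share no mice.

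MEP are the progenitors from which red cells and platelets arise. They answer to erythropoietin (EPO), whose receptor acts through the kinase JAK2 and the transcription factor STAT5, and in anemia a rise in EPO draws on this pathway to raise red cell output. Rasa3 encodes a GTPase-activating protein that turns off the small GTPases Ras and Rap1, and the scat allele leads to anemia and low platelets that come in episodes.

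Values below are normalised counts deposited by the authors, rescaled so that the median gene has the same level in each library. A log2 fold change is crisis over young WT on the log2(count + 1) scale, with its standard error (SE), and a gene passed when its Benjamini-Hochberg adjusted p from limma was under 0.05 over all 14307 genes. Libraries held 36.4 to 51.2 M normalised counts and 17491 to 18359 genes above 0. The smallest steps between low values place their depth at 30.4 to 38.2 M reads, apart from crisis 1 at 50.9 M. Kit, which the MEP gate requires, had rescaled counts of 5713 to 21970 in crisis libraries and 10854 to 11858 in young WT libraries. Ly6a, the Sca-1 gene that the gate leaves out, stayed at or below 6.41 in all 6. The erythroid factor Gata1 lay at 11019 to 15355 in crisis libraries and 11044 to 14829 in young WT libraries, and the EPO receptor gene Epor at 8455 to 10578 in crisis libraries and 6969 to 9493 in young WT libraries, so defining genes of the labelled cell type were present in each library. Cd34, which MEP lack on their surface, was at 97.4, 83.4 and 141 in crisis libraries and at 660, 90.5 and 836 in young WT libraries, so young WT 2 had the crisis level.

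One library stood apart from its group. Crisis 1 correlated over all genes at a Pearson r of 0.956 and 0.944 with crisis 2 and crisis 3, but at 0.972 to 0.977 with the 3 young WT libraries, while crisis 2 and crisis 3 correlated at 0.973 with each other. Its low values and those of young WT 2 fall on 1 step size, against several in the other 4 libraries. Each group thus holds 1 library with this pattern, in each case from its mouse aged 23 days, and what the pattern reflects was not tested. Counts of genes over the whole table and the main lists are therefore also given without crisis 1. Crisis 1 was singled out by these same expression values, and its removal favours a larger contrast. Counts and adjusted p without it are therefore descriptive and give no independent support. Among the 5 other bone marrow MEP libraries of the series, Erfe counts were 101, 1159 and 315 in remission and 2153 and 93.5 in older WT, so 1 older WT library (mouse 27265) lay within the crisis range, and none of the 5 enters the comparison.

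Rasa3 itself, on chromosome 8 at chr8:13566948-13677603 (GRCm38, minus strand), had rescaled counts of 2127, 1835 and 1648 in crisis MEP, against 2309, 2029 and 3617 in young WT MEP. The groups overlapped, because crisis 1 lay above young WT 2. The log2 fold change was -0.47 (SE 0.217, adjusted p = 0.370 by limma), so its level does not separate the genotypes and is no check of them.

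In crisis, 29 of 14307 genes passed (0.203% of genes tested), 27 of them higher (0.189%) and 2 lower (0.014%). At that share gene lists as small as those below mostly hold no gene that passes, so 0 passing is no result about a list. Genes whose 3 crisis libraries all lay above the 3 young WT libraries numbered 1474 (10.3%), and 1274 lay all below (8.9%). The genes that rose include EPO-induced genes (Erfe, Podxl), the transferrin receptor (Tfrc), a lactate transporter (Slc16a3), the hypoxia-inducible Hif3a, the clock gene Per1 and the complement receptor C5ar2. Ifitm1, an interferon-induced membrane protein gene active in early progenitors, and the long noncoding RNA 1700006J14Rik fell. Without crisis 1, 778 genes passed higher (5.44%) and 934 lower (6.53%), and all 29 genes were among them. Leaving out any other single library left 6 to 10 genes, and of the 29 genes 17 passed in no such fit. A fit over all 11 bone marrow MEP libraries of the series passed Slc16a3 alone. In bulk RNA a lower share of cells of one kind and less RNA per cell cannot be told apart.

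**Figure D1:**
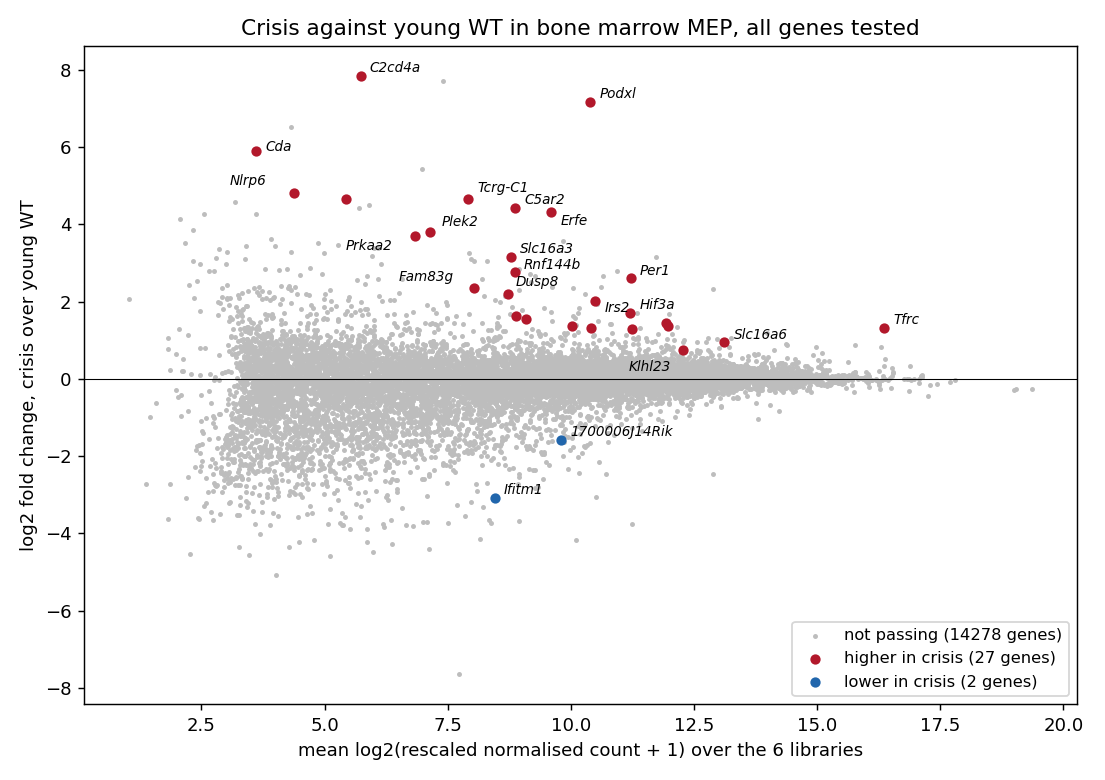
Each point is 1 of 14307 genes, with its mean log2(rescaled normalised count + 1) over the 6 libraries on the x axis and its log2 fold change, crisis over young WT, on the y axis. The 27 genes that passed higher are red, the 2 that passed lower are blue, and a selection of the genes named in the text is labelled; among the genes that passed Tfrc has the highest count, which is not corrected for length.

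The EPO and STAT5 genes were the list with the highest median, 1.08 on the log2 scale over 16 members, against -0.01 over all genes tested. The lists were chosen with earlier results of these data known, and these had singled out Erfe and Cish. The rank of the list is therefore descriptive and no independent support. Of the 16 members 2 passed, both higher, and 9 had all crisis libraries above all young WT libraries, against none below. Over all genes tested, 10.3% lay all above and 8.9% all below. Erfe, which encodes erythroferrone, the hormone by which erythroid cells lower hepcidin and free iron, lies at chr1:91366430-91374217 (GRCm38, plus strand). Its rescaled counts were 1840, 7147 and 3201 in crisis libraries, against 202, 137 and 188 in young WT libraries. Crisis 2 was highest, and the lowest crisis library stood well above the highest young WT library. Its log2 fold change was 4.32 (SE 0.461, adjusted p = 0.0263 by limma), so Erfe passed. With crisis 3 or any 1 of the young WT libraries left out, its adjusted p was 0.0946 to 0.160. The gene overlaps Ilkap on the other strand, whose mean was 3652 in crisis and 3551 in young WT.

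Podxl encodes podocalyxin, a sialomucin that erythroid progenitors put on their surface in response to EPO. Its rescaled counts were 8050, 31324 and 16731 in crisis libraries, against 219, 46.6 and 132 in young WT libraries, with no overlap. Its log2 fold change was 7.18 (SE 0.684, adjusted p = 0.0263 by limma), and adjusted p was 0.0626 to 0.143 with any 1 library but crisis 1 left out. Cish, a feedback inhibitor of cytokine receptors and a direct STAT5 target, was at 1160, 10645 and 2555 in crisis libraries, against 281, 187 and 358 in young WT libraries. The groups did not overlap, but crisis 2 was far above the other 2 crisis libraries, and the log2 difference of 3.57 (SE 0.773) missed the threshold (adjusted p = 0.196 by limma, and 0.0056 without crisis 1).

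Other STAT5-induced members without overlap that did not pass included the kinase gene Pim1 and the cytokine gene Osm. Pim1 was at 3139, 7924 and 4091 in crisis libraries and 1412, 1200 and 1760 in young WT libraries. Osm was at 699, 3328 and 1003 in crisis libraries and 247, 130 and 194 in young WT libraries. Crisis 2 was again highest, as it was for 10 of the 16 members. The signalling genes themselves did not follow: Epor, Jak2, Stat5a and Stat5b each overlapped between the groups. Without crisis 1, 6 of the 16 passed, all higher, against 5.44% of all genes. Outside the list, Plek2 and Irs2 rose. Plek2 encodes pleckstrin-2, an actin-organising protein downstream of JAK2 in erythroid cells, and had rescaled counts of 425, 899 and 391 in crisis libraries, against 47.8, 23.4 and 44.2 in young WT libraries (log2 3.82, SE 0.425, adjusted p = 0.0263 by limma). Irs2, a docking protein of the insulin receptor, had 2044, 4106 and 2871 in crisis libraries, against 847, 602 and 727 in young WT libraries (log2 2.01, SE 0.253, adjusted p = 0.0398 by limma). Neither gene overlapped between the groups.

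**Figure D2:**
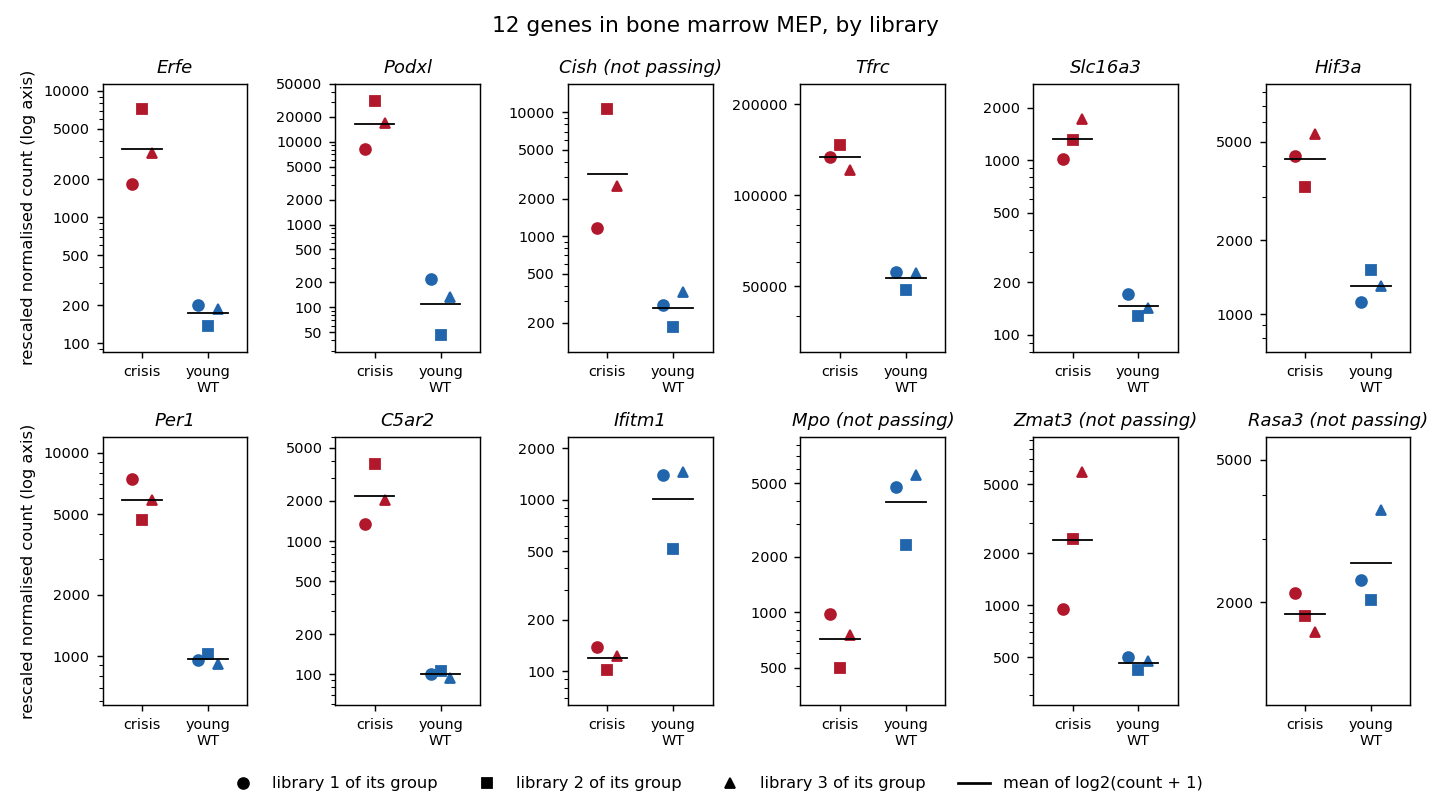
Rescaled normalised counts on a log axis for 12 genes in the 3 crisis libraries (red, left) and 3 young WT libraries (blue, right) of bone marrow MEP; symbols mark the library number within its group and the line is the mean of log2(count + 1). For Erfe, Podxl, Tfrc, Slc16a3, Hif3a, Per1 and C5ar2 every crisis library is above every young WT library, for Ifitm1 and Mpo every one is below, and for Rasa3 the groups overlap.

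The 300-base promoter windows are shown (RefSeq, GRCm38.p6, plus strand, 250 bases before the transcription start and 50 from it on) for Per1 and Slc16a3, the 2 genes with the smallest p, and for Cish, a direct STAT5 target that did not pass, with motif matches in capitals. Slc16a3 (chr11:120948817-120949116) shows ACGTG, the core that hypoxia-inducible factors bind. Per1 (chr11:69098699-69098998) shows CACGTG, the E-box of the clock factors, and its second window holds none. Cish (chr9:107296409-107296708) shows TTCNNNGAA, the STAT element, in 2 adjacent copies.
Slc16a3: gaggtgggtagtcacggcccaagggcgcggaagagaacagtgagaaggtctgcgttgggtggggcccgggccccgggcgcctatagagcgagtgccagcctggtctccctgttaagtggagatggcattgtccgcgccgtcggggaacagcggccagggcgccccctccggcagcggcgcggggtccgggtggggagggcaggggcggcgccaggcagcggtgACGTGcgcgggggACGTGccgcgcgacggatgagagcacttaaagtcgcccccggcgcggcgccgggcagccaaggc
Per1: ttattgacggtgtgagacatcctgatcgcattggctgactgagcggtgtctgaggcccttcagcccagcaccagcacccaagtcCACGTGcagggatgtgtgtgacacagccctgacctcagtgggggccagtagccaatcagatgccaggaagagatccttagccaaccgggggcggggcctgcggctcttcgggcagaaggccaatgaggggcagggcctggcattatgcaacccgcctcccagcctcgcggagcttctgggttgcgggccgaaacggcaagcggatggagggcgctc
Cish: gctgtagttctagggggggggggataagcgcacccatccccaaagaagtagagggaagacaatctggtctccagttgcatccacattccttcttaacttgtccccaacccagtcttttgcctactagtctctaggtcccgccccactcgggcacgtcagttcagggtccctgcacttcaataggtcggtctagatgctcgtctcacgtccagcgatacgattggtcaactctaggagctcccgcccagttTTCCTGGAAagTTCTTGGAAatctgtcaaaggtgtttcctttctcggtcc
Both strands were searched, and each CACGTG also counts as ACGTG. Of the 29 genes that passed 22 had a window, 30 windows in all. ACGTG was in 23.3% of these, against 19.6% of all 32851 windows, and TGACGTCA, the cyclic AMP element, in 3.33% against 1.79%. CACGTG was in 3 of the 30 windows, against 7.15% of all windows, and TTCNNNGAA in 3 of the 30, against 8.3%. These are small numbers, and a match is only a string of letters in the window.

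Slc16a3 encodes the monocarboxylate transporter MCT4, through which cells with high glycolysis release lactate. It lies at chr11:120948480-120960868 (GRCm38, plus strand). Its rescaled counts were 1016, 1307 and 1723 in crisis libraries, against 171, 127 and 143 in young WT libraries. The groups were far apart, and the libraries within each lay close together. In the other 5 bone marrow MEP libraries it was at 110, 198 and 137 in remission and at 253 and 161 in older WT, all under the lowest crisis library. Its log2 fold change was 3.16 (SE 0.238, adjusted p = 0.00782 by limma), an 8.96-fold difference, and adjusted p was 0.0522 when crisis 2 was left out. Of the 24 glycolysis and lactate genes tested, Slc16a3 was the 1 that passed, against 0.203% of all genes, with a list median of 0.27. Of the 24, 6 lay all above and 1 all below, against 10.3% and 8.9% of all genes tested. Hk1, the hexokinase of red cells, had 32773, 51880 and 50006 in crisis libraries, against 29791, 29789 and 23974 in young WT libraries, and Ldha, which makes lactate, had 27797, 43646 and 49608 in crisis libraries, against 29997, 27995 and 25465 in young WT libraries. Hk1 did not overlap, while for Ldha crisis 1 lay within the young WT range, and neither passed (adjusted p = 0.254 and 0.339 by limma). Without crisis 1, 8 of the 24 passed, all higher, against 5.44% of all genes. Slc16a6, another transporter of the monocarboxylate family, rose by 0.94 (SE 0.124, adjusted p = 0.0429 by limma).

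Of 22 hypoxia-response genes tested 1 passed, with a list median of 0.14. Of the 22, 9 lay all above and 2 all below, against 10.3% and 8.9% of all genes tested. The gene that passed was Hif3a, a member of the hypoxia-inducible factor family that is itself induced by low oxygen. It was at 4390, 3268 and 5388 in crisis libraries, against 1125, 1509 and 1302 in young WT libraries. The groups did not overlap, and its log2 fold change was 1.71 (SE 0.195, adjusted p = 0.0263 by limma). With crisis 3 or any 1 of the young WT libraries left out, adjusted p was 0.0626 to 0.140. Vegfa, the endothelial growth factor gene, was at 937, 1378 and 1096 in crisis libraries and 489, 463 and 806 in young WT libraries (log2 0.98, adjusted p = 0.214 by limma). Car9, another classical target, lay in the opposite direction, at 41.4, 21.0 and 42.9 in crisis libraries and 82.8, 51.2 and 130 in young WT libraries (log2 -1.27, adjusted p = 0.312 by limma). Without crisis 1, 4 of the 22 passed higher and 1 lower, against 5.44% and 6.53% of all genes.

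Tfrc encodes the transferrin receptor, the route by which erythroid cells take up iron, and lies at chr16:32608920-32632794 (GRCm38, plus strand). Its rescaled counts were 133957, 146458 and 121200 in crisis libraries, against 55886, 48507 and 55307 in young WT libraries. The 3 libraries of each group lay close together and the groups were wide apart. Tfrc was 2.51-fold higher in crisis (log2 1.33, SE 0.110, adjusted p = 0.00803 by limma), and it passed whichever library was left out. None of the other 13 iron genes tested passed, and the median of the 14 was -0.01. Haem synthesis genes gave 0 passing of 15 with a median of 0.09 and 4 all above, against 10.3% of all genes tested. Among the 4 was Alas2, the erythroid first enzyme, at 5208, 6054 and 4165 in crisis libraries and 2963, 3131 and 2839 in young WT libraries (log2 0.77, adjusted p = 0.124 by limma).

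Of the 5 globin genes tested 0 passed, with a list median of 0.59. The adult genes Hbb-bs, Hbb-bt and Hba-a2 lay all above, the adult gene Hba-a1 overlapped between the groups (log2 0.22), and the embryonic gene Hba-x lay all below at low counts, with 8.28, 0 and 6.13 in crisis libraries, against 34.9, 24.6 and 22.6 in young WT libraries (log2 -2.79, adjusted p = 0.291 by limma). Without crisis 1, 2 of the 5 passed, both higher, against 5.44% of all genes. Hbb-bt, a beta chain, was at 8764, 15007 and 7984 in crisis libraries, against 4762, 4997 and 4848 in young WT libraries (log2 1.06, adjusted p = 0.164 by limma), so crisis 2 was highest. The near-identical globin copies may have shared reads, which the counting could have divided between them. Red cell membrane and surface genes gave 0 passing of 22, a median of 0.05 and 6 all above, against 10.3% of all genes tested. Rhag, which carries the Rh complex, was at 22311, 28739 and 37307 in crisis libraries, against 16001, 16490 and 13529 in young WT libraries (log2 0.91, adjusted p = 0.157 by limma). Erythroid transcription factors gave 0 passing of 16 and a median of -0.05. Without crisis 1, the membrane list had 5 passing higher and 2 lower with a median of -0.09. The haem synthesis list then had 3 higher and 2 lower with a median of -0.08, so both medians changed sign. In that fit 5.44% of all genes passed higher and 6.53% lower. Young WT 3 was the lowest young WT library for all 22 membrane genes, for 14 of 15 haem synthesis genes and for 14 of 16 transcription factors. In that library the summed B cell markers were highest of the 6, and the part of such differences in the results was not tested.

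**Figure D3:**
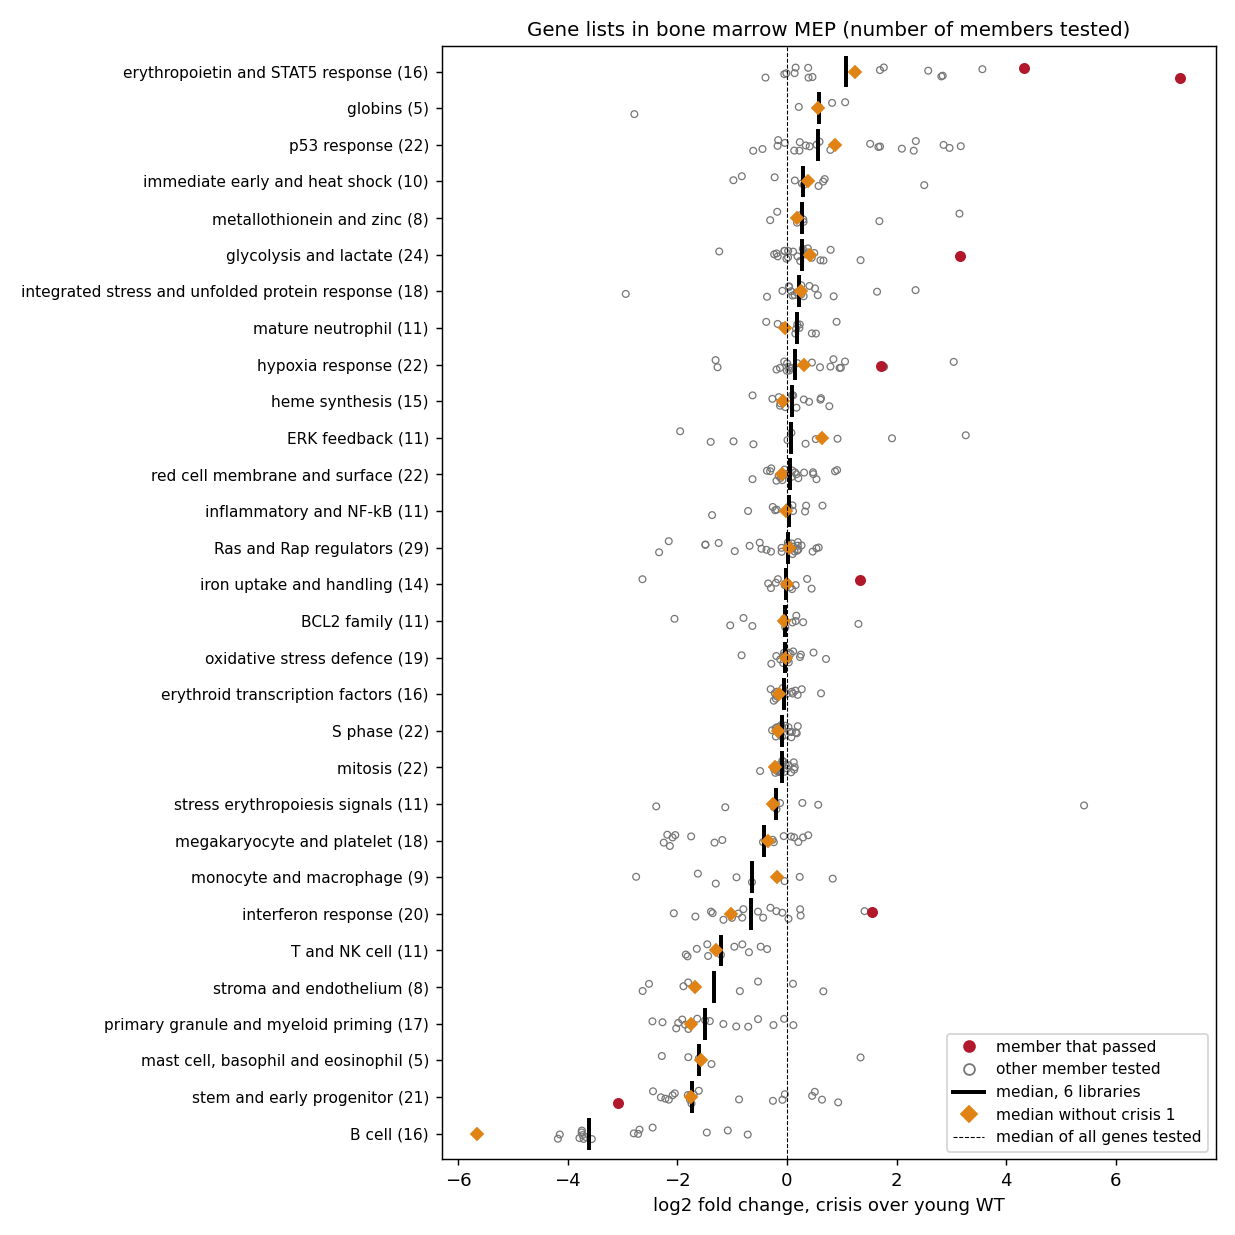
Each circle is the log2 fold change, crisis over young WT, of 1 tested member of the gene list named on the y axis, with members that passed in red. Black bars are list medians over the 6 libraries, orange diamonds the medians without crisis 1, and the dashed line is the median of all genes tested; the EPO and STAT5 list has the highest median and the B cell list the lowest, which is also the one that moves most without crisis 1.

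Per1, a repressor of the circadian clock whose gene is also induced by glucocorticoids, had the smallest p of all genes. It lies at chr11:69095217-69109960 (GRCm38, plus strand), and its rescaled counts were 7455, 4658 and 5861 in crisis libraries, against 959, 1023 and 915 in young WT libraries. The young WT libraries were nearly equal and all crisis libraries stood far above them. Per1 was 6.09-fold higher in crisis (log2 2.61, SE 0.169, adjusted p = 0.00514 by limma), and like Tfrc it passed with any library left out. C5ar2 encodes a receptor of the complement fragment C5a that does not couple to G proteins. It had 1336, 3764 and 2030 in crisis libraries, against 101, 106 and 93.3 in young WT libraries, with no overlap, and was 21.5-fold higher (log2 4.43, SE 0.348, adjusted p = 0.00803 by limma). Adjusted p was 0.0611 when crisis 3 was left out, for C5ar2 and for the chloride channel gene Clcn2 alike. Clcn2 had a log2 fold change of 1.44 (SE 0.123, adjusted p = 0.0082 by limma). Rnf144b, a ubiquitin ligase gene, had 2.76 (SE 0.254, adjusted p = 0.0118 by limma), with adjusted p of 0.0549 without crisis 2 and 0.0581 without young WT 3.

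Some of the largest changes were in genes near 0 in young WT MEP. C2cd4a, which encodes a protein with a calcium-binding C2 domain, had 425, 1389 and 890 in crisis libraries, against 11.9, 0 and 2.36 in young WT libraries. Its log2 difference of 7.85 (SE 0.908, adjusted p = 0.0275 by limma) depends on the pseudocount and on the libraries kept, and ran between 5.88 and 8.78 over the alternatives. Cda, the cytidine deaminase gene, had 80.0, 187 and 55.4 in crisis libraries, against 2.97, 0 and 0 in young WT libraries, and its log2 difference of 5.91 ran between 3.27 and 6.63. The 2 groups compared were clearly separate for both genes, while their fold sizes are uncertain. Outside the comparison, older WT 1 (mouse 27265) lay within the crisis range for both, at 914 for C2cd4a and 116 for Cda. Remission 2 was at 500 for C2cd4a, also within that range, and at 25.0 for Cda, below it.

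Nlrp6, an innate immune sensor gene, was also near 0 in young WT MEP (log2 4.83). Prkaa2, the alpha 2 catalytic subunit of AMP-activated kinase, was at a low level there and rose (log2 3.70, SE 0.499, adjusted p = 0.0443 by limma). It was at 200, 677 and 502 in crisis libraries and at 23.6, 26.0 and 45.9 in young WT libraries, without overlap. Tcrg-C1, a constant region of the T cell receptor gamma chain, rose by 4.66, from reads that may belong to its copies: its transcript is 94.384% identical to Tcrg-C2 over 926 bases and 96.918% to Tcrg-C3 over 649 bases. The 11 T and NK cell markers tested had 0 passing and a median of -1.21, opposite in sign to Tcrg-C1.

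The remaining genes that rose did so by 0.76 to 2.35 on the log2 scale. They include the JNK and p38 phosphatase gene Dusp8 (log2 2.21), the transcription factor gene Klf5 (log2 1.62), the antiviral gene Rsad2 (log2 1.54), the sialyltransferase gene St3gal6 (log2 1.37), the cell junction gene Pkp4 (log2 1.33) and the fatty acid carrier gene Fabp5 (log2 1.30). Klhl23, a kelch-family gene, changed least, at 6390, 6440 and 6411 in crisis libraries and 3983, 3796 and 3615 in young WT libraries, with replicates that lay close together in both groups. Gm6166 is a processed pseudogene whose 409 bases are 98.289% identical to Fabp5, so its rise cannot be separated from that of Fabp5. Fam83g, a gene linked to BMP signalling, rose by 2.35. Of the 29 genes, 12 overlap another annotated gene, and whether counting used strand is not given in the sources used here.

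Lists of early and of myeloid progenitor genes had negative medians. The stem and early progenitor list had 1 of 21 passing, lower, 10 all below against 1 all above, and a median of -1.74. Among all genes tested, 8.9% lay all below and 10.3% all above. Ifitm1, at chr7:140967221-140969825 (GRCm38, plus strand), had 138, 101 and 123 in crisis libraries, against 1395, 520 and 1450 in young WT libraries. The crisis libraries were alike, and young WT 2 was the lowest of its group. Its log2 fold change was -3.07 (SE 0.397, adjusted p = 0.0429 by limma), and adjusted p was 0.149 to 0.198 with crisis 2, crisis 3, young WT 1 or young WT 3 left out. Angpt1, the ligand of the stem cell receptor Tek, was at 156, 144 and 205 in crisis libraries, against 980, 291 and 1158 in young WT libraries (log2 -2.05, adjusted p = 0.208 by limma). Young WT 2 was the lowest young WT library for 19 of these 21 genes. Without crisis 1, 1 of the 21 passed higher and 4 lower, against 5.44% and 6.53% of all genes.

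The primary granule and myeloid priming list had 0 passing of 17 and a median of -1.49. It had 10 all below and none above, against 8.9% and 10.3% of all genes tested. Mpo, which encodes the myeloperoxidase of granulocyte precursors, was at 975, 500 and 756 in crisis libraries, against 4742, 2326 and 5539 in young WT libraries. The highest crisis library was under the lowest young WT library, but the log2 difference of -2.46 (SE 0.370) did not pass (adjusted p = 0.0795 by limma, and 0.0062 without crisis 1). The proteases Elane (147, 57.3 and 103 in crisis libraries, 486, 424 and 230 in young WT libraries) and Prtn3 (116, 44.3 and 90.3 in crisis libraries, 373, 274 and 224 in young WT libraries) were likewise all below. The 18 megakaryocyte and platelet genes had 0 passing, a median of -0.42 and a range of -2.25 to 0.39, with 2 all below (Pf4 and Serpine2) and none all above, against 8.9% and 10.3% over all genes. Without crisis 1, 1 of the 18 passed higher and 4 lower, against 5.44% and 6.53% of all genes. Pf4, the platelet factor 4 gene, was at 25.7, 12.03 and 24.5 in crisis libraries, against 103, 54.9 and 116 in young WT libraries (log2 -2.09, adjusted p = 0.190 by limma). Without crisis 1, 6 of the 17 myeloid genes passed, all lower, against 6.53% of all genes.

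1700006J14Rik was at 429, 456 and 703 in crisis libraries, against 1483, 1793 and 1380 in young WT libraries, without overlap, with a log2 fold change of -1.58 (SE 0.214, adjusted p = 0.0443 by limma). It lies opposite Hmga2, whose mean was 559 in crisis and 440 in young WT. The next genes by p that were lower did not pass. They were Apoe, the apolipoprotein E gene, at 649, 395 and 574 in crisis libraries and 1785, 1293 and 1934 in young WT libraries (log2 -1.64, adjusted p = 0.0504 by limma), the methyltransferase gene Smyd3 (log2 -0.998), Clstn3 (log2 -1.54), Mpo (given above), Plcb4, a phospholipase C gene (log2 -0.84), the lysosomal sulfatase gene Galns (log2 -1.27), Tdrd5 (log2 -3.23) and S100a10 (log2 -1.46). Each lay all below without overlap.

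B cell genes showed how far the crisis libraries differed. The summed rescaled counts of the 16 markers were 50892, 4570 and 990 in crisis libraries, against 26269, 30497 and 92316 in young WT libraries. Crisis 1 had a level inside the young WT range, while crisis 2 and crisis 3 lay below it. Rag1, a recombinase of B and T cell precursors, was at 6336, 160 and 15.9 in crisis libraries, against 2964, 3123 and 11106 in young WT libraries (log2 -4.18, SE 2.12, adjusted p = 0.411 by limma). No B cell gene passed, with a median of -3.62. Without crisis 1 the median was -5.66 and 13 of 16 passed lower, against 6.53% of all genes. Mature neutrophil markers had a median of 0.19 and monocyte and macrophage markers of -0.64, with 0 passing among 11 and 9. The mast cell, basophil and eosinophil list (median -1.61 over 5 genes) and the stroma and endothelium list (median -1.33 over 8) had 0 passing too, at low counts. The part of these other cells in the results above was not tested.

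**Figure D4:**
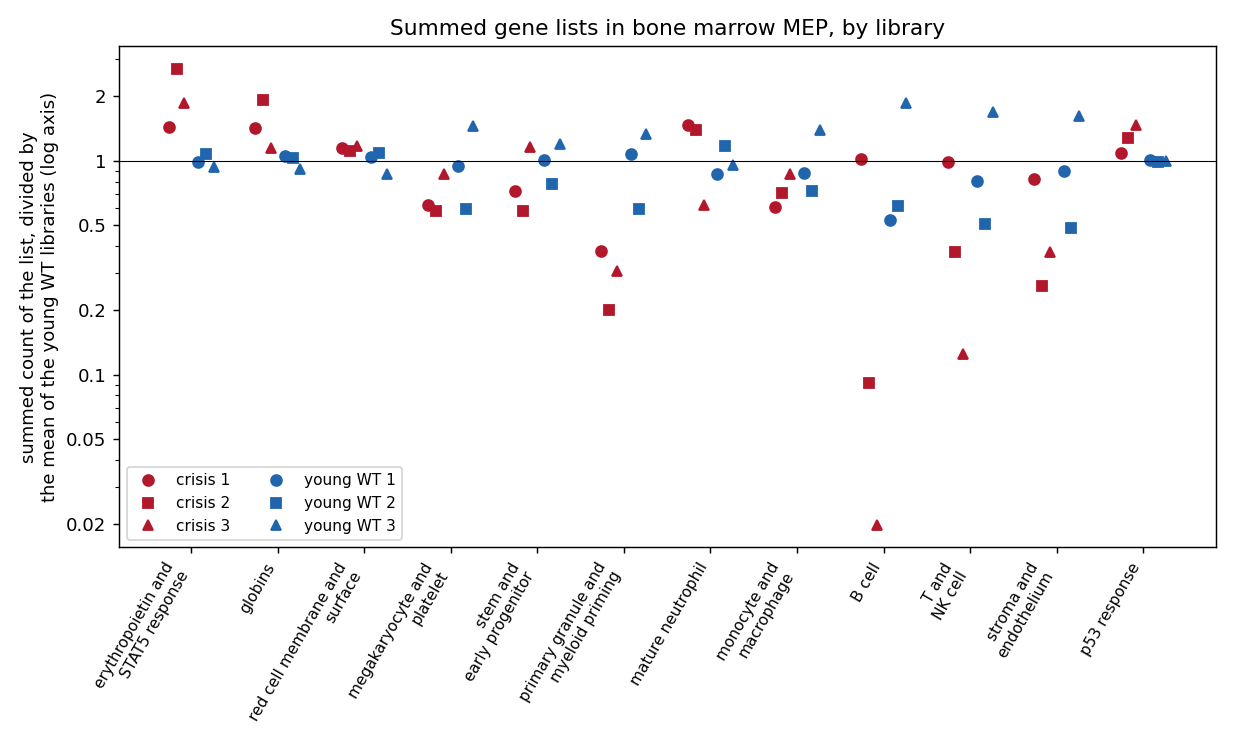
Summed rescaled counts of 12 gene lists in each library, divided by the mean of the 3 young WT libraries, on a log axis, with crisis libraries in red on the left of each pair and young WT libraries in blue on the right. The primary granule sums of all 3 crisis libraries lie under the young WT libraries, the EPO and STAT5 and p53 sums lie above them, and the B cell sum of crisis 1 lies among the young WT libraries while crisis 3 is lowest.

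Among stress pathways, the p53 response list had 0 passing of 22 and a median of 0.57. It had 11 all above and none below, against 10.3% and 8.9% of all genes tested. Zmat3, a p53-induced RNA-binding protein gene, was at 948, 2420 and 5855 in crisis libraries, against 503, 420 and 477 in young WT libraries. The groups did not overlap, crisis 3 was highest, and the log2 difference of 2.35 (SE 0.599) did not pass (adjusted p = 0.244 by limma, and 0.0032 without crisis 1). The cell cycle inhibitor gene Cdkn1a was at 411, 1304 and 2521 in crisis libraries, against 201, 151 and 359 in young WT libraries, and the death gene Pmaip1 at 18.4, 39.4 and 64.4 in crisis libraries, against 1.49, 6.84 and 5.91 in young WT libraries, both without overlap or passing. Crisis 3 was the highest crisis library for 15 of the 22 genes. Without crisis 1, 11 of the 22 passed, all higher, against 5.44% of all genes. Trp53 itself was at 13833 to 17116 in crisis libraries and 14260 to 16817 in young WT libraries.

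The metallothionein genes Mt1 and Mt2, which encode metal-binding proteins induced by zinc and glucocorticoids, were all above in crisis. Mt2 was at 4772, 11964 and 17650 in crisis libraries, against 1316, 1351 and 813 in young WT libraries (log2 3.15, SE 0.478, adjusted p = 0.0975 by limma). Jun, an immediate early gene, was at 1421, 1111 and 1700 in crisis libraries, against 167, 200 and 434 in young WT libraries (log2 2.51, SE 0.356, adjusted p = 0.0534 by limma). None of these 3 genes passed. Of the 20 interferon-response genes 1 passed, Rsad2, and the median was -0.66, opposite in sign to Rsad2. Without crisis 1, 1 of the 20 passed higher and 6 lower, against 5.44% and 6.53% of all genes. Integrated stress and unfolded protein response genes (median 0.22 over 18), oxidative stress genes (median -0.03 over 19), NF-kB genes (median 0.03 over 11) and BCL2 family genes (median -0.03 over 11) had 0 passing. Over all genes tested 0.203% passed.

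Cell cycle genes differed little over the 6 libraries. S phase and mitosis lists of 22 genes each had 0 passing, with medians of -0.10 in both. Without crisis 1 the medians were -0.16 for S phase and -0.23 for mitosis. In that fit 1 gene of each list passed, lower, against 6.53% of all genes. Summed mitosis counts were 347327, 288008 and 261173 in crisis libraries, against 291518 to 326492 in young WT libraries. Young WT 3 was the lowest young WT library for 21 of the 22 genes in each list. Genes that regulate Ras and Rap, the pathway that Rasa3 restrains, had 0 passing of 29, against 0.203% of all genes. Their median was 0.02, with a range of -2.33 to 0.58. Of the 29, 3 lay all above and 2 all below, against 10.3% and 8.9% of all genes tested. With crisis 1 left out, 1 of the 29 passed higher and 4 lower, against 5.44% and 6.53% of all genes. Feedback genes of the ERK kinase, which lies downstream of Ras, had 0 passing of 11 and a median of 0.08. Of the 11, 2 lay all above and 2 all below, against 10.3% and 8.9% of all genes tested. Without crisis 1 the median was 0.63, and 4 of the 11 passed higher and 1 lower, against 5.44% and 6.53% of all genes. Spry1, a Ras pathway inhibitor gene, was at 416, 1076 and 962 in crisis libraries, against 75.6, 43.9 and 141 in young WT libraries (log2 3.26, SE 0.503, adjusted p = 0.0694 by limma, and 0.0053 without crisis 1). Dusp5, an ERK phosphatase gene, was at 101, 54.1 and 20.3 in crisis libraries, against 150, 129 and 351 in young WT libraries (log2 -1.95, adjusted p = 0.284 by limma, and 0.0342 without crisis 1). Neither gene overlapped between the groups. The stress erythropoiesis list had 0 passing of 11 and a median of -0.21, and Homer2 in it was at 160, 1584 and 2223 in crisis libraries and 23.3, 34.3 and 7.41 in young WT libraries (log2 5.42, adjusted p = 0.158 by limma).

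The same 6 mice gave MEP from the spleen and SMP, a stem and myeloid progenitor fraction that carries CD34, from the bone marrow, so crisis effects could be compared within mice. Between bone marrow MEP and spleen MEP, 0 of 13974 genes passed for a difference in the crisis effect (0% higher, 0% lower; 807 at an unadjusted p under 0.05, limma). Slc16a3 had a log2 change of 3.14 in bone marrow MEP and 1.66 in spleen MEP (difference 1.48, SE 0.318, adjusted p = 0.531 by limma). For Erfe the changes were 4.29 in bone marrow MEP and 3.10 in spleen MEP, and for Hif3a 1.68 in bone marrow MEP and 1.77 in spleen MEP. A difference that did not pass does not show that the effects were alike.

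Between bone marrow MEP and bone marrow SMP, the difference in the crisis effect (MEP minus SMP) passed for 71 of 15004 genes, 24 positive (0.16%) and 47 negative (0.313%). A negative difference can be a smaller rise in MEP or a larger fall: 1700006J14Rik changed by -1.60 in MEP and 0.38 in SMP, and Smyd3 by -1.02 in MEP and 0.0053 in SMP. Slc16a3 rose more in MEP, with log2 changes of 3.14 in MEP and 0.998 in SMP (difference 2.15, SE 0.197, adjusted p = 0.0274 by limma). Prkaa2 changed by 3.68 in MEP and 0.24 in SMP (difference 3.45), Pkp4 by 1.31 in MEP and -0.12 in SMP (difference 1.43), and Fabp5 by 1.28 in MEP and 0.44 in SMP (difference 0.84). Red cell genes differed the other way: Car1, a carbonic anhydrase gene, changed by 0.86 in MEP and 3.32 in SMP (difference -2.47), and Rhd, an Rh antigen gene, by -0.33 in MEP and 2.41 in SMP (difference -2.74). The 22 red cell membrane and surface genes had a median change of 0.03 in MEP and 1.44 in SMP, with 4 of them among the 47. The metallothioneins also had smaller changes in MEP, with 3.13 in MEP and 7.32 in SMP for Mt2 (difference -4.19, SE 0.581, adjusted p = 0.0441 by limma). The count rests on few mice: without crisis 2, young WT 1 or young WT 3, 0 genes passed, and without crisis 1, 562 did.

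**Figure D5:**
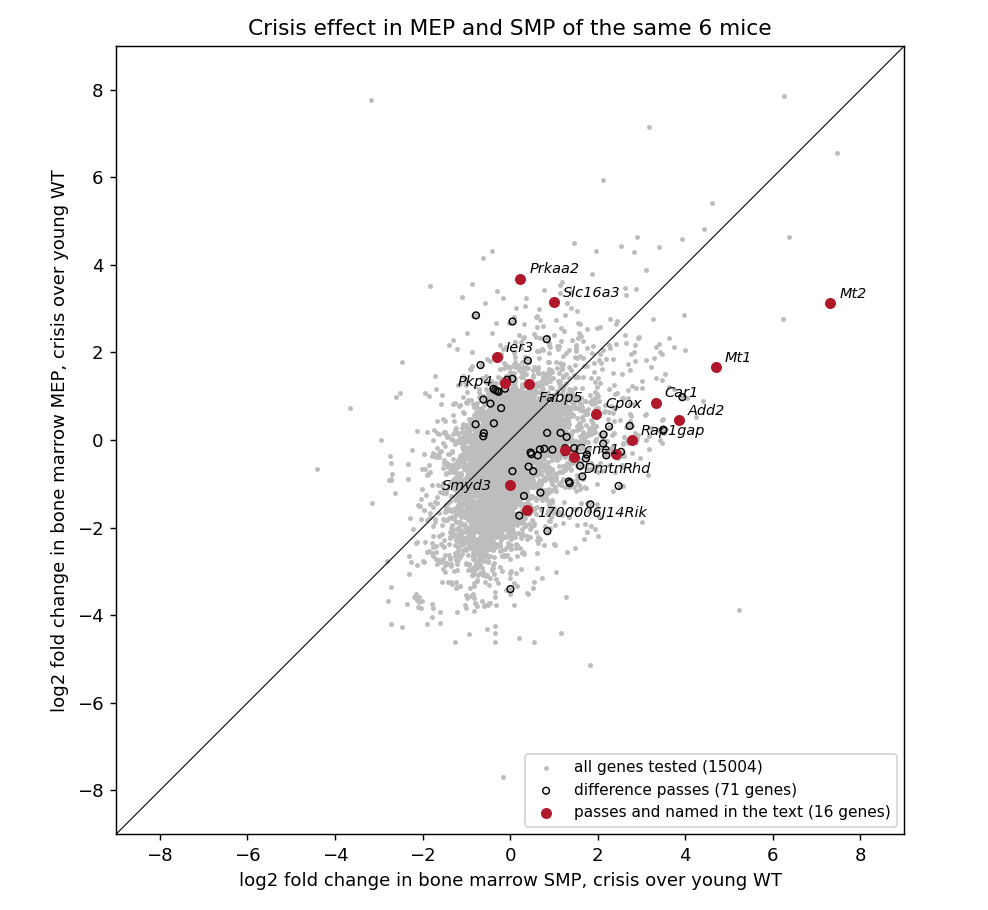
Log2 fold change, crisis over young WT, in bone marrow MEP (y axis) against bone marrow SMP (x axis) of the same 6 mice for 15004 genes, with equal changes on the line. Open black circles are the 71 genes whose difference passed and red points the 16 of these that are named; Slc16a3 and Prkaa2 lie above the line and Mt1, Mt2, Add2, Car1 and Rhd below it.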

How the data were processed

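The GRCm38 genome, RSEM, DESeq2 and Bowtie2 2.2.0 are listed, without order or role, per the submitters' processing notes. The deposited signal is a table of normalised counts for 26286 genes, which are not whole reads, and the authors also deposited regularised log2 values for 25287 genes. Each bone marrow MEP column was divided by its median ratio over the 11 MEP columns. Genes with a mean of at least 10 over the 6 libraries were tested on log2(count + 1) by limma 3.58.1 in R 4.3.3 with trend and robust empirical Bayes, two-sided. An exact test of 3 against 3 mice cannot go below p = 0.1, and limma was the test for every gene. Differences between populations were tested on within-mouse differences, since the titles pair libraries by mouse. Libraries of 1 group come from separate mice. Libraries total 36.4 to 51.2 M counts. The standard errors are those of limma: the spread within groups, pooled over both and moderated towards genes of like level.

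Named genes are Rasa3, the 10 highest and 10 lowest changes among genes that passed without overlap and with a mean of at least 100 in the higher group (filled by p where fewer passed), the 4 members of each list with the smallest p, gate genes, Slc16a3, Erfe and Cish. Other genes were chosen after their values were seen. The comparison, the 30 lists and the named genes were chosen with earlier results of these data known. Identifiers were matched to GENCODE M21 (25607), promoters are RefSeq GRCm38.p6, transcripts were compared with BLAST 2.17.0, and figures drawn with matplotlib 3.10.9. Of 64 samples 1 has contradictory labels and was left out. Ahsp was not analysed here, and 1 gene that passed is not reported here by name.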

Additional observations from a re-analysis of the deposited data

Results flagged for a closer look

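The crisis effect on 16 named or listed genes differed between bone marrow MEP and bone marrow SMP of the same 6 mice, by limma on within-mouse differences over 15004 genes. The difference (MEP minus SMP, log2) was positive for Slc16a3 (2.15), Prkaa2 (3.45), Pkp4 (1.43), Fabp5 (0.84) and Ier3, an early response gene (2.201). It was negative for the metallothioneins Mt1 (-3.02) and Mt2 (-4.19), for the red cell genes Add2 (-3.39), Rhd (-2.74), Car1 (-2.47) and Dmtn (-1.85), for Cpox, an enzyme of haem synthesis (-1.37), for Ccne1, the cyclin E1 gene (-1.48), for Rap1gap, which turns off Rap1 (-2.78), for Smyd3 (-1.02) and for 1700006J14Rik (-1.98). Adjusted p ran between 0.0274 and 0.0443 for these genes. Over all 15004 genes 71 passed, 24 positive (0.16%) and 47 negative (0.313%). Some of the 16 were named for their change in MEP, which is part of this difference, so their number is no independent result. Without crisis 2, young WT 1 or young WT 3, 0 genes passed, and 1 passed with pairing by mouse dropped.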

How the results depend on the processing

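Of 14307 genes 29 passed. The count was 508 without rescaling (146 higher, 362 lower), 48 without the filter on low values, 45 with age as a covariate, 7 with young and older WT as control, 5 with 4 groups but without mice 2726 and 27265, 1 over all 11 libraries and 0 without trend and robust fitting (1740 at an unadjusted p under 0.05). It ran between 6 and 1712 when 1 library was left out. Of the 29 genes, Per1 and Tfrc passed in all 6 such fits, 17 in 1 of them, and none changed direction in any alternative. Other settings gave 25 to 32 genes. The difference from spleen MEP (0 genes) gave 0 with no replicate block, 36 without rescaling and 0 to 5 with 1 mouse left out. The difference from SMP (71 genes) gave 311 without rescaling, 1 with no replicate block (pairing by mouse dropped) and 0 to 562 with 1 mouse left out. For crisis against young WT no paired analysis was possible, because the groups share no mice. Direction was followed across settings only for the genes that passed and those named by rule, not for all 14307 genes. Among the followed genes that did not pass, direction reversed in 8 cases. With older WT added these were Ltf (-0.19) and Camp (-0.22). Without crisis 2 they were Kit (0.38) and Fcgr2b (0.25), and without crisis 3 Xist (-0.55) and S100a9 (0.028). The last were Xist (-0.01) without young WT 1 and Fcgr2b (0.26) without young WT 3. With 1 library left out, the full ranges were -0.59 to 0.38 for Kit, -0.61 to 0.26 for Fcgr2b, -0.55 to 0.47 for Xist and -0.73 to 0.028 for S100a9. The cause of these shifts was not tested. Genes below a few counts, such as Cda in young WT, have fold sizes that depth and pseudocount set.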

Other observations

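The following genes were chosen after their values were seen. Beside Per1, 4 genes known as targets of the glucocorticoid receptor lay all above in crisis without passing. They come from no fixed list, and 10.3% of all genes tested lay all above. The count is therefore no measure of such targets as a set. Tsc22d3 had rescaled counts of 2403, 1198 and 2256 in crisis libraries and 549, 485 and 805 in young WT libraries (log2 1.64, adjusted p = 0.124 by limma). Fkbp5 had 2720, 5375 and 9864 in crisis libraries and 2269, 2173 and 2615 in young WT libraries (log2 1.16, adjusted p = 0.319 by limma). Ddit4 (log2 1.77) and Klf9 (log2 0.66) were the others, while Sgk1 overlapped between the groups. Among clock genes, Nr1d1 had 158, 144 and 199 in crisis libraries and 149, 170 and 207 in young WT libraries, and Dbp 119, 100 and 107 in crisis libraries and 112, 119 and 163 in young WT libraries, so neither was displaced as Per1 was. The hour of collection is not given in the sources used here. What the rise of Per1 reflects was not tested, and these hand-picked genes cannot decide it.

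Rps16-ps2, a ribosomal protein pseudogene, had the lowest log2 fold change of all genes tested (-7.65, adjusted p = 0.340 by limma). It was at 2282, 0.364 and 0.0764 in crisis libraries, against 2937, 4138 and 2238 in young WT libraries, so crisis 1 lay at the young WT level. Tnfrsf19 split in the same way, at 967, 0 and 1.54 in crisis libraries and 116, 165 and 834 in young WT libraries. Trnp1 was carried by 1 library, at 16.6, 86.4 and 4576 in crisis libraries and 2.84, 0 and 1.32 in young WT libraries. Podxl, C5ar2 and Erfe were also high in 1 library recorded as older WT, at 21574, 879 and 2153 in mouse 27265, against 149, 42.7 and 93.5 in the other older WT mouse. Remission 2 was above all 3 young WT libraries too, at 10012, 320 and 1159, while remission 1 had 108, 67.8 and 101 and remission 3 had 147, 118 and 315. In mouse 27265, Tcrg-C1 (1951), Irs2 (3047) and Fabp5 (4060) also lay within the crisis range.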
